A study of Drosophila melanogaster with 10 samples.

Results

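The SLC17-type genes of Drosophila described here are 10 genes named as phosphate or anion cotransporters, NaPi-T, Picot, VGlut, CG7881, CG9254, CG9825, CG9826, CG9864, CG6978 and CG3649. They were found on the array through 11 probe sets that the platform annotation gives to 1 of these genes alone, of 13966 probe sets in all, and Picot was the only gene with more than 1. RNA of Malpighian tubules, the renal organ of the fly, was measured beside RNA of whole flies on 5 arrays of each, in pairs numbered 2 to 6. Both groups were adult Oregon R flies of 7 days and mixed sexes with no transgene or treatment. A tubule and a fly sample of the same number were taken to be from 1 culture. Each sample was pooled from many animals, and the whole flies included their own tubules. In such samples, fewer cells of a type and less RNA per cell cannot be told apart.

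SLC17 proteins are membrane carriers of the major facilitator type. In mammals the family holds the type I sodium phosphate cotransporters of kidney and liver, which also move organic anions such as urate, a lysosomal sialic acid exporter, and the vesicular glutamate transporters of neurons. Insect genomes carry an expanded set of these genes, most of which have no assigned substrate, so that the name of phosphate cotransporter rests on sequence for many of them. The tubule moves phosphate, urate and other organic anions into the urine, on gradients that the V-ATPase and the Na,K-ATPase supply.

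The values are MAS 5.0 signals on a linear scale from 0.1 to 14002.8, which order the arrays for 1 probe set but not different probe sets against each other. The median signal of an array was 25.5 to 28.2 in tubule and 41.7 to 45.9 in whole flies. Of the 9 tubule markers measured, all 9 were higher in tubule, from Lkr (log2 fold change 1.49), the leucokinin receptor, to Irk3 (6.30), an inward rectifier channel. These markers were chosen with the paper's tables of enriched genes known, so they are no independent check of the samples. Genes of neighbouring and other organs differed between tubule arrays: the summed signal of 33 genes for midgut digestive enzymes was 32797, 40473.6, 4123.1, 25511.6 and 7385.6 in tubule arrays 2 to 6 and 71180.9 to 92200.2 in the fly arrays, and that of 13 genes for secreted products of male accessory gland and duct was 4699.2, 831.5, 2550.3, 4511.3 and 146.2 in tubule and 10957.1 to 17535.8 in flies. The sum over 19 testis and sperm genes was 635.2 to 2493.9 in tubule and 6528.1 to 15084.6 in flies. Tubule arrays 2, 3 and 5 had the 3 highest midgut sums. The counts below were also made without pairs 3 and 5 and without pairs 2, 3 and 5, both chosen after the sums were seen. The first of these settings keeps array 2, whose midgut sum was above that of array 5, so it does not take out all arrays with high sums. Both settings leave fewer pairs, so a call can be lost with little change in the fold change.

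The 10 genes formed 3 sets. NaPi-T, CG7881, CG9864 and Picot were higher in tubule, CG9254, CG9825, CG9826 and VGlut were lower, and CG6978 and CG3649 did not pass the test (limma with the pair as a block, adjusted p under 0.05 over all probe sets). Over the whole array 16.8% of probe sets were called higher and 36.3% lower, so that the 4 members called lower are close to the share of the array and the 4 called higher stand beside a smaller one. NaPi-T and CG7881 had a mean ratio of tubule to fly signal of at least 10, which 1.53% of all probe sets reached with a call, and all 4 had a ratio of at least 5, which 3.32% reached. The same 4 genes had all 5 tubule signals above all 5 fly signals (14.1% of all probe sets did), and the 4 lower genes had all of them below (29.6% did). The median log2 fold change of the 10 genes was 0.22, against -0.32 over all probe sets. The split rests in part on the scaling: with quantile normalization 5 members were higher and 2 lower (4148 and 3446 over the array), and with RpL32 held constant 4 and 4 (1451 and 6453, against 2342 and 5076 as scaled). Without pairs 3 and 5 it was 4 higher and 2 lower (1660 and 3694 over the array), and without pairs 2, 3 and 5 it was 4 and 3 (1623 and 3528).

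**Figure D1:**
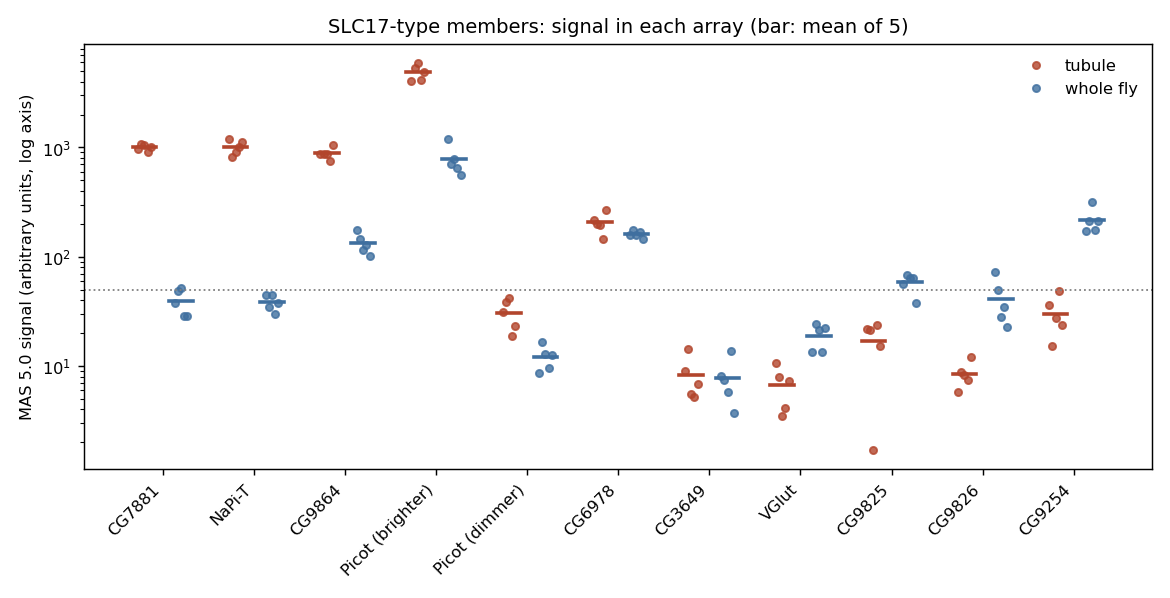
MAS 5.0 signal (log axis) of the 11 probe sets in each of the 5 tubule and 5 whole fly arrays, ordered by gene from the highest to the lowest fold change, with the mean of each group as a bar and a signal of 50 as the dotted line. The tubule points of CG7881, NaPi-T, CG9864 and Picot (its brighter probe set) lie above all fly points, and those of VGlut, CG9825, CG9826 and CG9254 lie below them.

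NaPi-T is named as a sodium phosphate cotransporter. Its signal was 1187.2, 816.1, 899.6, 1015.7 and 1110.4 in tubule arrays 2 to 6, against 44.4, 34.5, 44.2, 30.1 and 37.5 in the fly arrays of the same numbers. Every tubule array was thus far above every fly array, and the fly signals all lay under 50. The mean ratio within pairs, called enrichment, was 26.8 ± 5.19 (SD, n = 5 pairs), with a log2 fold change of 4.72 (SE 0.132, adjusted p = 1.1e-07, limma), the 47th highest of the 13966 probe sets.

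CG7881, a related gene with no assigned substrate, had nearly the same ratio. Its signal was 967.4, 1076.9, 1061.4, 908.3 and 1010.4 in tubule, against 37.8, 48.8, 51.5, 28.6 and 28.5 in whole flies. The tubule arrays differed little, with an SD of 6.88% of their mean, where NaPi-T had 15.0%. Its enrichment was 27.1 ± 6.35 (SD, n = 5 pairs), with a log2 fold change of 4.73 (SE 0.143, adjusted p = 1.6e-07, limma), the 45th highest. With signals under 50 set to 50, both genes had a log2 fold change of 4.32. Within pairs the log2 ratios of CG7881 and NaPi-T differed by 0.01 ± 0.15 (SD), with CG7881 the higher in 2 of 5 pairs.

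CG9864, which also has no assigned substrate, was next in the order of ratios.
Its signal was 869.9, 869.5, 876.1, 757.2 and 1062.7 in tubule, against 174.4, 145.6, 116.1, 129.0 and 102.4 in whole flies. The groups did not overlap, and every signal of both groups lay above 100. Its enrichment was 6.95 ± 2.13 (SD, n = 5 pairs), with a log2 fold change of 2.75 (SE 0.155, adjusted p = 3.4e-06, limma).

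Picot, named as a predicted inorganic phosphate cotransporter, was measured by a pair of probe sets of very different signal. By the brighter one its signal was 4089.3, 5345.3, 5892.9, 4185.3 and 4928.9 in tubule, against 1204.8, 709.5, 783.6, 650.6 and 561.1 in whole flies. The groups did not overlap, and fly array 2 stood above the other fly arrays. The summed signal of 7 genes for cation pump subunits was also highest in fly array 2 (7523.9 against 6453.9 to 6720.5). In the tubule arrays that sum was 18551.3 to 21268. By gene, Vha26 (2689.5), Vha55 and Vha100-2 were highest in fly array 2. There Vha16-1, nrv2 and nrv3 were not the highest, and nrv1 was the lowest (511.6). The enrichment was 6.73 ± 2.04 (SD, n = 5 pairs), with a log2 fold change of 2.68 (SE 0.185, adjusted p = 1.1e-05, limma) and of 2.91 without pair 2. The dimmer probe set had 31.1, 38.1, 41.6, 18.7 and 23.1 in tubule and 8.60, 16.4, 12.9, 9.60 and 12.6 in whole flies. It was also higher in tubule, but by less, with a ratio of 2.59 ± 0.793 (adjusted p = 0.0052, limma), and it lay under 50 in all 10 arrays, so that with signals under 50 set to 50 it gave no difference. The size of the difference for Picot is therefore taken from the brighter probe set alone.

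CG9254 was the member with the lowest fold change. Its signal was 36.0, 15.2, 27.2, 48.7 and 23.9 in tubule, against 173.7, 210.9, 318.3, 174.0 and 212.9 in whole flies. All tubule signals lay under 50 and all fly signals well above it. The ratio was 0.151 ± 0.0892 (SD, n = 5 pairs), with a log2 fold change of -2.92 (SE 0.294, adjusted p = 8.3e-05, limma), and it was the one lower member that was still called with signals under 50 set to 50 (-2.09, adjusted p = 7e-04, limma). Tubule arrays 5 and 2 had its highest signals and array 4 the middle one, and arrays 2 and 5 also had the highest accessory gland sums and array 4 the middle one. Arrays 3 and 6 were the lowest in both but in opposite order, with signals of 15.2 and 23.9 beside sums of 831.5 and 146.2. The testis and sperm sum was also highest in tubule arrays 5 and 2 (2493.9 and 1880.5), but next came array 3 (1399.6), where CG9254 was lowest. The part of accessory gland or testis transcripts in the signal of CG9254 was not tested.

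CG9825 and CG9826, adjacent genes with no assigned substrate, were lower in tubule at signals near or below 50. CG9825 had 22.0, 21.3, 1.70, 23.9 and 15.2 in tubule, against 56.2, 68.5, 64.2, 63.9 and 37.9 in whole flies, and the groups did not overlap. Its log2 fold change of -2.20 (SE 0.577, adjusted p = 0.012, limma) leaned on tubule array 4, and without pair 4 it was -1.44. It was not called with quantile normalization (-1.51, adjusted p = 0.063, limma) or without pairs 3 and 5 (-2.64, adjusted p = 0.054), and was called without pairs 2, 3 and 5 (-3.28, adjusted p = 0.035). Array 4 was also the tubule array with the lowest midgut enzyme sum, 4123.1 against 7385.6 to 40473.6 in the others; whether midgut transcripts had a part in the signal was not tested. CG9826 had 5.80, 8.80, 8.30, 7.40 and 12.1 in tubule, against 72.1, 49.1, 27.8, 34.7 and 22.5 in whole flies. Here it was the fly arrays that were spread, with an SD of 48.3% of their mean, and still none reached down to a tubule signal (log2 fold change -2.20, SE 0.409, adjusted p = 0.0022, limma). Without pairs 2, 3 and 5 it was not called (-1.32, adjusted p = 0.13, limma). With signals under 50 set to 50, neither gene was called (-0.27 with adjusted p = 0.053 for CG9825, and -0.11 with adjusted p = 0.6 for CG9826, limma).

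VGlut encodes the vesicular glutamate transporter, which loads glutamate into the synaptic vesicles of motor neurons and other glutamatergic neurons. Its signal was low in both groups, 10.7, 7.90, 3.50, 4.10 and 7.30 in tubule, against 13.5, 24.2, 21.2, 13.4 and 22.1 in whole flies. The highest tubule signal lay just under the lowest fly signal, so the groups did not overlap, but none of the 10 arrays reached 50. The log2 fold change was -1.57 (SE 0.398, adjusted p = 0.01, limma). It was not called with quantile normalization (-0.66, adjusted p = 0.18), without pairs 3 and 5 (-1.51, adjusted p = 0.094) or with signals under 50 set to 50. Of the 18 neuronal genes measured, 8 were lower in tubule, 1 was higher and 9 did not pass. Over the array 36.3% of probe sets were called lower and 16.8% higher, so the lower calls are not far from that share. The summed signal of the 18 genes was 288 to 388.2 in tubule and 431.7 to 627.5 in whole flies. Csp, a synaptic vesicle chaperone gene that is also expressed outside neurons, was the one higher (log2 fold change 0.68), and unc-13, a gene of vesicle priming, was the lowest (-3.93). Only Csp had a tubule mean of at least 50 (174.9, and 108.4 in whole flies), so the summed signal leans on it. With signals under 50 set to 50, ple was the only neuronal gene still called lower (-1.29, adjusted p = 0.023, limma). The defining neuronal gene elav was at 3.38 in tubule and 8.02 in whole flies on average. None of these markers was at exactly 0.

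CG6978 was measured well above 50 in every array and did not pass the test. Its signal was 218.7, 200.1, 194.0, 146.1 and 270.4 in tubule, against 156.9, 175.2, 158.1, 167.2 and 146.6 in whole flies. The fly arrays lay close together, and tubule array 5 lay below all of them while the other 4 tubule arrays lay above. The ratio was 1.30 ± 0.360 (SD, n = 5 pairs), with a log2 fold change of 0.33 and a 95% interval of -0.03 to 0.70 (adjusted p = 0.11, limma). The interval leaves room for no difference and for a difference of moderate size. The call depended on the setting. CG6978 was called higher without pair 5 (0.46, adjusted p = 0.042) and with quantile normalization (0.50, adjusted p = 0.025), and its direction turned with RpL32 held constant (-0.01).

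CG3649, the next gene along from CG9826, was near the bottom of the scale in both groups. Its signal was 9.0, 14.3, 5.50, 5.20 and 6.90 in tubule, against 8.10, 7.50, 5.80, 13.8 and 3.70 in whole flies. The groups overlapped fully, and the log2 fold change of 0.10 had a 95% interval of -0.93 to 1.13 (adjusted p = 0.87, limma). The highest of these signals was 14.3, and the values hold no detection call to say whether the transcript was present.

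**Figure D2:**
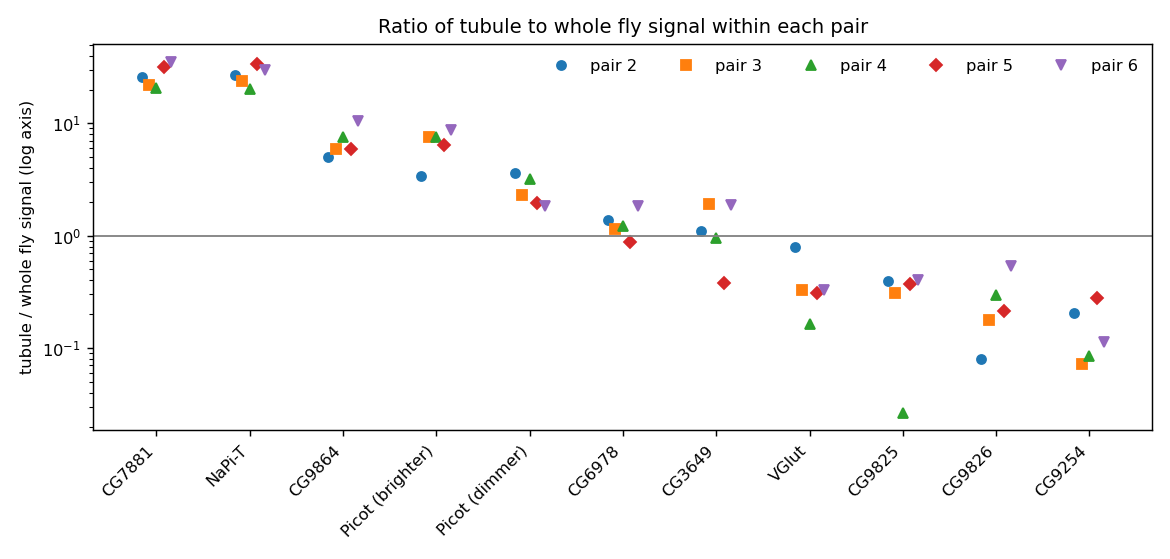
Ratio of tubule to whole fly signal (log axis) within each of the pairs 2 to 6 for the 11 probe sets, with a line at equal signal. CG7881 and NaPi-T lie between 20.4 and 35.5 in every pair, CG9864 and Picot (its brighter probe set) between 3.39 and 10.4, and CG9825 reaches down to 0.0265 in pair 4.

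The plot of ratios by pair orders the genes by their mean fold changes. An exact sign-flip test over the 5 pairs set each gene against the next, in 9 comparisons. Its lowest p was 0.0625 (0.188 after Benjamini-Hochberg adjustment). No smaller p is possible with 5 pairs, so the test could not establish the order, which is given as a description. NaPi-T had a higher ratio than CG9864 in 5 of 5 pairs, by 1.98 ± 0.50 on the log2 scale (SD), and Picot a higher one than CG6978 in 5 of 5, by 2.35 ± 0.64. CG7881 and NaPi-T changed places between pairs, as did CG9864 and Picot, CG6978 and CG3649, and the 4 lower genes among themselves. The places of CG3649, VGlut, CG9825 and CG9826 rest on signals near or under 50.

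The wider family was set beside these genes through 14 further SLC17-type genes, each measured by 1 probe set or by the brighter of its probe sets. Of these, 6 were higher in tubule, 4 lower, and 4 did not pass, with a median log2 fold change of -0.02. MFS12 (CG8791) had the highest ratio of them. Its signal was 206.5, 301.1, 420.2, 573.1 and 737.2 in tubule, against 26.8, 19.3, 18.4, 14.2 and 15.6 in whole flies. The groups were well apart, but the tubule arrays alone were widely spread, with an SD of 47.4% of their mean. The tubule signal rose with each array number, and the ratio rose likewise, from 7.71 in pair 2 to 47.3 in pair 6. The cause of this rise was not tested. MFS12 had an enrichment of 26.8 ± 16.6 (SD, n = 5 pairs), with a log2 fold change of 4.46 (SE 0.357, adjusted p = 2.4e-05, limma). All of its fly signals lay under 50, and a floor of 50 on all signals gave 3.02 in place of 4.46 (adjusted p = 0.0018, limma), beside 4.32 for NaPi-T and CG7881. MFS14 (CG15095, enrichment 9.12 ± 3.17), MFS9 (CG4288, 2.99 ± 0.764), dmGlut (CG5304, 2.23 ± 0.307), MFS15 (CG15094, 2.27 ± 0.852) and MFS10 (CG4330, 1.76 ± 0.207) were the others that were higher (adjusted p up to 0.0014, limma).
CG7091 was the lowest of the whole family, at 2.60, 2.00, 3.00, 4.5 and 2.00 in tubule, against 47.8, 71.5, 52.3, 101.9 and 89.6 in whole flies. No tubule signal came near a fly signal, but with tubule signals so close to the bottom of the scale the size of its log2 fold change (-4.69, adjusted p = 1.5e-05, limma) is uncertain. With signals under 50 set to 50, CG7091 was not called (-0.49, adjusted p = 0.13, limma). CG3036 (ratio 0.375 ± 0.0853), CG2003 (0.541 ± 0.151) and MFS18 (CG15438, 0.620 ± 0.172) were lower by less (adjusted p up to 0.0071, limma). CG15096, MFS3 (CG4726), CG12490 and CG18788 did not pass. Of them CG15096 had a strong signal, 779.2 to 1059.1 in tubule and 525.8 to 1387.6 in whole flies. Over all 24 genes, 10 were higher, 8 lower and 6 not called. Over the array 16.8% of probe sets were called higher and 36.3% lower. The genes called lower, of the 14 as of the 24, are thus not above the share of the array.

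**Figure D3:**
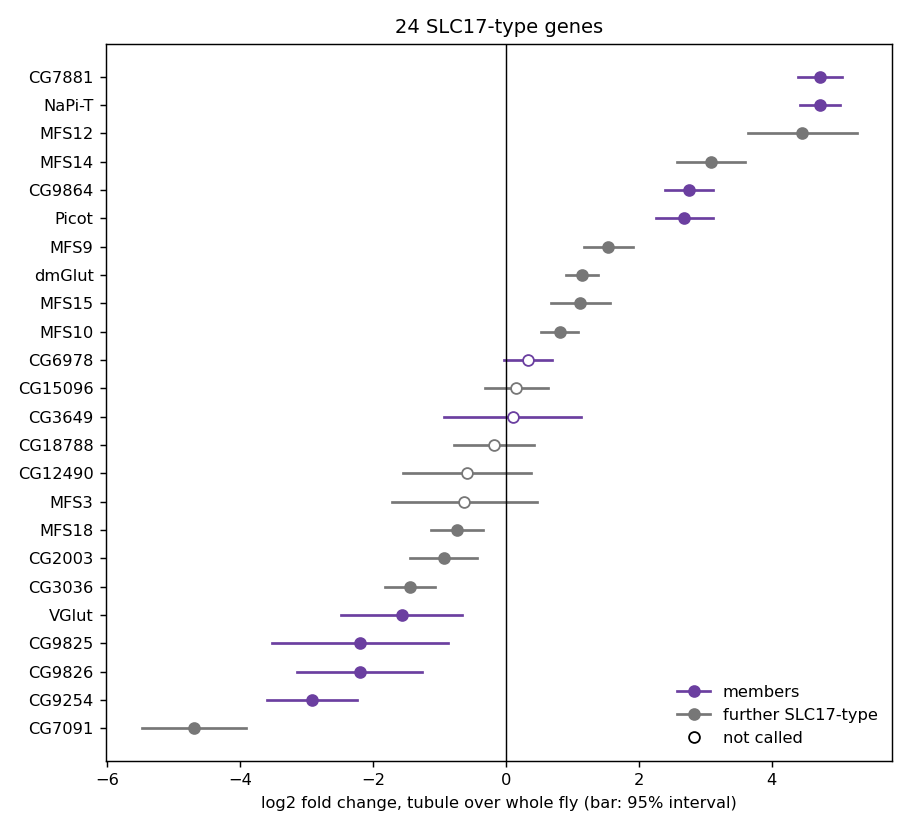
Log2 fold change of tubule over whole fly with its 95% interval for the 24 SLC17-type genes, the 10 members in purple and the 14 further genes in grey, with open points for genes that were not called. The family runs from CG7091 at -4.69 to CG7881 at 4.73, with 10 genes called above 0 and 8 below it.

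Several of these genes lie next to each other on the chromosome, with no other protein-coding gene between them in the current RefSeq gene order. CG12490, CG9825, CG9826 and CG3649 form a run on arm 2R, and MFS15, MFS14 and CG15096 another, while dmGlut and CG18788 adjoin on 2L. In the run on 2R that holds CG9825, none of the 4 genes was higher in tubule, and the mean tubule signal was 3.84 for CG12490, 16.8 for CG9825, 8.48 for CG9826 and 8.18 for CG3649, against 5.32, 58.1, 41.2 and 7.78 in whole flies. In the MFS14 run the genes parted: MFS14 averaged 1032.3 in tubule and 129.4 in whole flies, MFS15 137.6 and 62.6, and CG15096 924.0 and 886.9 in the same order. Of the adjoining genes on 2L, dmGlut was higher (715.8 ± 91.8 in tubule and 321.0 ± 16.1 in whole flies, SD, n = 5 arrays each) and CG18788 was not called (22.8 ± 5.99 and 25.4 ± 4.54 likewise). Whether close copies of these genes share signal on the array was not tested. NaPi-T, Picot, CG7881 and CG9864, the 4 members higher in tubule, are on 2R too, but in none of these runs.

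**Figure D4:**
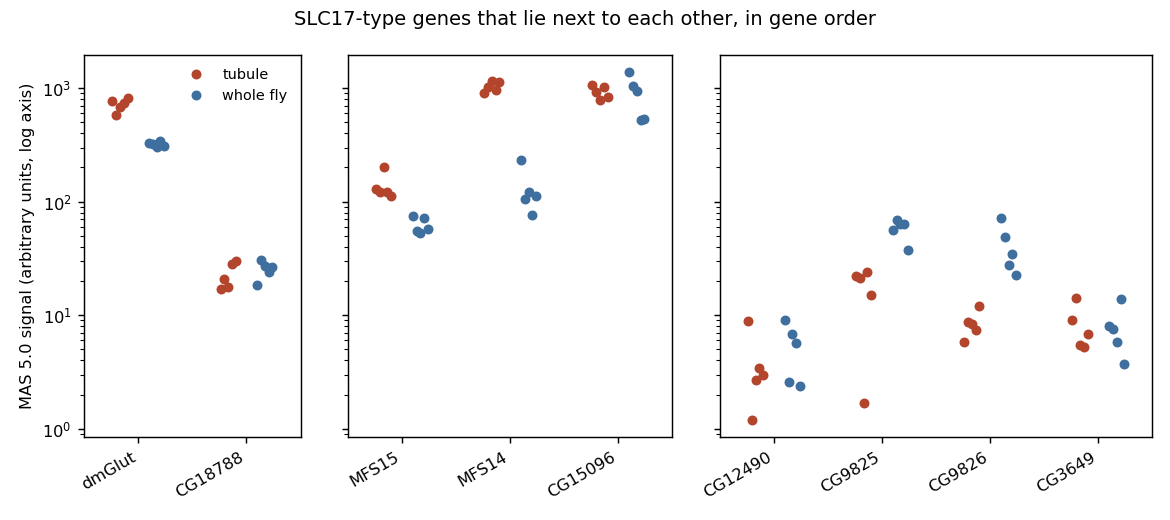
MAS 5.0 signal (log axis) in each tubule and whole fly array for SLC17-type genes that lie next to each other, drawn in gene order in 3 runs. In the run of CG12490, CG9825, CG9826 and CG3649 no tubule signal exceeds 23.9, whereas in the run of MFS15, MFS14 and CG15096 the first 2 have tubule signals above all of their fly signals.

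Other genes of phosphate handling did not move one way. Of 5 measured, 3 were higher and 2 lower in tubule. Alp4, a tubule alkaline phosphatase, which frees phosphate from its esters, had an enrichment of 18.8 ± 3.45 (SD, n = 5 pairs, adjusted p = 8.8e-08, limma), and Nurf-38, an inorganic pyrophosphatase gene, 1.60 ± 0.296 (adjusted p = 0.0017, limma). The genes of the mitochondrial phosphate carrier, which brings phosphate into the matrix for ATP synthesis, differed in direction. Mpcp2 averaged 2171.7 in tubule and 974.7 in whole flies (log2 fold change 1.15), and Mpcp1 203.1 in tubule and 1203.6 in whole flies (-2.54; the larger adjusted p was 3.1e-05, limma). PXo, a phosphate transporter gene of gut cells, averaged 3.18 in tubule and 8.44 in whole flies (log2 fold change -1.47, adjusted p = 0.026, limma), both near the bottom of the scale.

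The cation pumps that power such carriers were measured by 7 subunit genes, of which 5 were higher and 2 lower. Atpalpha, the Na,K-ATPase alpha subunit gene, and Vha68-2, a V-ATPase A subunit gene, are not among them. Neither had a probe set that the annotation gives to 1 gene alone. The paper reports both as enriched in tubule. The V-ATPase genes Vha55, Vha26, Vha100-2 and Vha16-1 had log2 fold changes of 1.35 to 2.43. Of the Na,K-ATPase beta subunit genes, nrv1 was higher (enrichment 3.47 ± 0.468, SD, n = 5 pairs), while nrv2 (0.0879 ± 0.133) and nrv3 (0.0972 ± 0.0179), known from the nervous system, were lower (adjusted p up to 4.5e-04, limma). The signals of nrv2 lay under 50 in all 10 arrays. With signals under 50 set to 50, nrv2 gave no difference and nrv3 was still lower (-2.04, adjusted p = 9.7e-05, limma). NaPi-T and CG7881 thus had larger log2 fold changes, 4.72 and 4.73, than any of the 7 pump subunit genes measured.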

How the data were processed

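RNA of tubules and whole flies was hybridised by the authors to the Affymetrix Drosophila genome array, and the deposited values are signal intensities that they made with MAS 5.0: background subtraction, a robust summary of perfect match less mismatch values per probe set, and linear scaling of each array. They hold no detection calls. The first pair was left out by the authors after quality control. Of the probe sets, 44 array controls were left out here and 13966 tested; 12443 of them name 1 gene (10845 genes), updated through a RefSeq table (Release 6), used for names, chromosome arms and gene order but not for coordinates.

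The test was limma 3.58.1 (R 4.3.3) on log2 signals, using lmFit and eBayes with an intensity trend. Pair was a blocking term, and Benjamini-Hochberg adjustment ran over every probe set tested. The fit was tested on simulated data. The pairing rests on the methods, which take tubule and fly of 1 culture as matched, and on the array numbers. The deviations of same-numbered arrays from their group means had correlations of -0.089 to 0.091. Each tubule array had a higher correlation with a fly array of another number (highest 0.111 to 0.167), so the values do not show the pairing by number. Nothing more is stated on how separate the cultures were, so p-values measure the spread between these samples. Their number, 5 a group, limits the precision. Genes with several probe sets are counted by the brighter one. All 10 members are named; for 0 members was the tubule SD over 0.3 of a tubule mean of at least 50, the condition for naming genes of a like pattern. Members and lists were chosen with earlier results of these data, and the paper's tables of enriched genes, known. Alternatives were the block left out, quantile normalization, RpL32 held constant, a floor of 50, and 16 added to each signal. Others were a mean of at least 50, no trend, an unpaired t-test, each pair left out, and 2 added sets of pairs left out.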

Additional observations from a re-analysis of the deposited data

Results flagged for a closer look

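Among the 22 groups of 5 arrays tested over the 11 probe sets, 1 held an array far from the others: CG9254 had a whole fly signal of 318.3 in array 4, against 173.7 to 212.9 in the other 4, with a gap to the nearest of 0.729 of the range (limit 0.71). Chance alone gives about 1 such array in 20 groups. Without pair 4 or any other single pair, the log2 fold change of CG9254 stayed between -3.19 and -2.70.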

How the results depend on the processing

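The counts of members called higher (4) and lower (4) stood without the replicate block (4 and 4; 2491 and 5247 over all probe sets), with no trend and with 16 added. Leaving out 1 pair gave 4 to 5 higher and 4 lower; for the further SLC17-type genes it gave 6 and 4, and over the array 1962 to 2222 and 4457 to 4877. The number of members called lower was 2 with quantile normalization, 1 with signals under 50 set to 50, 1 among the 6 with a mean of at least 50, 2 without pairs 3 and 5, and 3 without pairs 2, 3 and 5, both chosen after seeing the data. The further genes called lower were 2 with quantile normalization, 2 of 9 with a mean of at least 50, and 2 without pairs 2, 3 and 5. Over the array, quantile normalization gave 4148 higher and RpL32 held constant 1451, while 2453 were lower with the floor of 50 and 2642 of 6125 with the mean of at least 50, where fewer probe sets were tested. The median log2 fold change over all probe sets was 0.18 with quantile normalization and -0.66 with RpL32 held constant, against -0.32 as scaled. CG6978 turned to -0.01 with RpL32 held constant, and CG3649 to -0.24; single pairs left out gave CG3649 -0.11 to 0.48 and CG6978 0.19 to 0.46. An unpaired t-test on log2 MAS 5.0 signals was also run at p under 0.01, the threshold of the paper's t-test. The paper applied its test to dChip values, together with bounds on fold change and mean difference, so the criterion differs. At that threshold 4 members were higher and 3 lower (2114 and 4295 over the array), and CG9825 was not called. After Benjamini and Hochberg the unpaired t-test gave 4 and 4 (2492 and 4958). Apart from the construction of the floor and the filter, the cause of these shifts was not tested. Low signals limit VGlut, CG9825, CG9826 and CG3649. Without detection calls, their presence in tubule was not tested.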
